A study of Mus musculus with 55 samples.

Results

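The libraries described here are those of non-progenitor ducts (NPD), a cell population sorted from mouse liver, before and after partial hepatectomy (PH, surgical removal of part of the liver). They were chosen by their sample titles and number 4 of the 55 libraries of a study of liver regeneration: 2 from normal liver (Norm NPD) and 2 from liver after PH (PH NPD). All animals were mice of the strain labelled C57B/L6, with no transgene or other treatment named in the labels. Sorting was by FACS, the cells were collected in TRIzol, and RNA was sequenced from standard Illumina libraries. The labels give no age, sex, time after surgery or batch, and nothing says that the 2 libraries of a group came from separate animals, so p-values measure only the spread between these libraries, which may be technical. For comparison the text uses biliary epithelial cells (BEC, 4 normal and 2 PH libraries), clonal biliary epithelial cells (cBEC, 4 and 2) and Thy1 cells (2 and 2) from the same strain and surgery. For PH cBEC 1 the title says PH and the treatment tag says normal; it was grouped by its title.

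Bile ducts are lined by cholangiocytes, which carry keratins 7 and 19, Epcam and the transcription factor Sox9. The surface of the liver is covered by mesothelium, a single layer that carries mesothelin (Msln) and uroplakin 3b (Upk3b), clears fibrin through the plasminogen system, and secretes and binds hyaluronan. After partial hepatectomy the remaining liver grows back as its mature cells re-enter the cell cycle, a process in which plasminogen activation, matrix turnover and growth factors take part.

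Levels are given as FPKM (fragments scaled by transcript length and library size), and changes as the difference of mean log2(FPKM + 1) between PH NPD and Norm NPD with its standard error (SE). A change on this scale is smaller than the true ratio for genes at low levels. A gene is said to have risen or fallen where limma's moderated test gave a Benjamini-Hochberg adjusted p under 0.05 over all genes tested. Genes were tested where at least 2 of the 4 libraries reached 1 FPKM, which kept 13024 of 24478 gene symbols. The FPKM of the 4 libraries summed to between 650345 and 741455, the read depth is unknown, and replicates correlated across genes at 0.971 in Norm NPD and 0.991 in PH NPD on the log2 scale.

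The markers went against the name of the sort in part. Of the 20 groups of libraries, Norm NPD had the highest mean log2(FPKM + 1) over 15 mesothelial markers, 9.14, followed by PH NPD at 8.67, Norm Thy1 at 7.86 and PH Thy1 at 7.001. Msln stood at 2074 and 1548 FPKM in the 2 Norm NPD libraries, against 4.32 to 12.1 in the 4 Norm BEC libraries. Upk3b, a membrane plaque protein of mesothelium, stood at 1902 and 2151 FPKM, against 4.45 to 13.2 in Norm BEC. All 15 mesothelial markers were higher in Norm NPD than in Norm BEC (limma fit of all 55 libraries, adjusted p under 0.05), where 33.4% of 16527 genes tested differed and 12.6% were higher. Of 22 biliary markers, 17 were lower and 1 was higher, where 20.8% of all genes were lower. Epcam, the adhesion molecule often used to sort cholangiocytes, was at 42.8 and 39.3 FPKM in Norm NPD and at 321 to 412 in Norm BEC. The duct keratin Krt19 was at 900 and 593 FPKM in Norm NPD, and 1 of these values lay within the Norm BEC range of 247 to 857. The sort is therefore called NPD throughout, as a label, and mesothelial genes led it.

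The 3 largest differences in each direction between Norm NPD and Norm BEC, among genes below 10 FPKM in hepatocytes, were as follows. Igfbp5, an insulin-like growth factor binding protein, was higher by 8.47 (SE 0.86, limma adjusted p = 1.38e-10), with 3157 and 4366 FPKM in Norm NPD and 5.97 to 26.7 in Norm BEC. Myl7, a myosin light chain, was higher by 8.36 and Upk3b by 8.04. Glipr2, the tight-junction gene Cldn4 and Mia were lower by 4.07, 3.91 and 3.88. These 6 genes were ranked only among genes whose groups of libraries did not overlap. That outcome was fixed in advance and is no test of them.

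**Figure D1:**
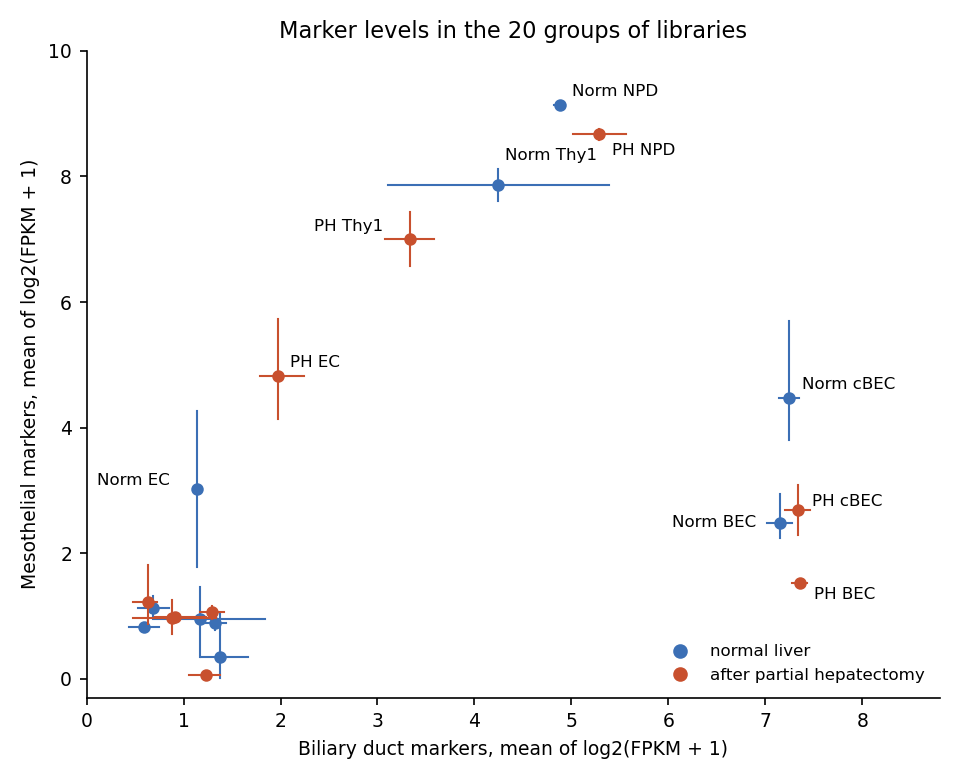
Mean log2(FPKM + 1) of 15 mesothelial markers (vertical axis) against that of 22 biliary duct markers (horizontal axis) in the 20 groups; points are group means and lines run from the lowest to the highest library. Both NPD groups sit at the top, at 9.14 and 8.67, with biliary values of 4.88 and 5.29 against 7.16 in Norm BEC and 7.25 in Norm cBEC.

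After PH, 1974 of the 13024 genes tested (15.2%) differed in NPD: 1257 rose (9.65%) and 717 fell (5.51%). Each list count below is to be read against these shares. For 36.9% of the genes tested both PH libraries lay above both normal ones, and for 27.6% below. The median change of all genes was 0.09. Quantile normalization moved that median to -0.02 and the share of called genes that were higher from 63.7% to 51.2%, and upper-quartile scaling gave 55.4%. Without any filter on low values 648 genes passed. With 1 PH NPD library left out the count over the same genes was 0 (limma; 1879 genes without PH NPD 1 and 1982 without PH NPD 2 at an unadjusted p under 0.05), and with the filter applied to the 3 libraries left it was 243 and 261. In a fit of all 55 libraries, where the spread is pooled over groups and a lone library is assumed to vary like the others, 1930 genes passed; this fell to 1056 without Norm NPD 1, 915 without PH NPD 1 and 1005 without PH NPD 2. Without Norm NPD 1 or Norm NPD 2 the fit of 3 libraries gave 4275 and 5419. The rule for naming genes, given under the processing below, took at most 2 passing members of each list in each direction. The 73 called genes that it named kept their direction with any 1 of the 4 libraries left out. Other list members that passed were not part of that check. The ranked genes were chosen for no overlap between the groups, which fixes that outcome in advance, so it is no test of them.

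Serpinb2, which encodes plasminogen activator inhibitor 2, was the largest rise among genes below 10 FPKM in hepatocytes. It was at 0.183 and 0 FPKM in Norm NPD and at 223 and 168 in PH NPD. The change was 7.48 (SE 0.22, limma adjusted p = 0.00363), and both PH libraries stood far above both normal ones. The gene lies on chromosome 1 at 109408000 to 109422177 (mm9, plus strand). The PH NPD mean of 195 FPKM was followed among the 20 groups by PH Thy1 at 192, Norm KC (Kupffer cells) at 21.3 and PH EC (endothelial cells) at 10.3, and the ranges of PH NPD (168 to 223) and PH Thy1 (170 to 214) overlapped.

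Serpinb2 belongs to the list of plasminogen activation, the protease system that dissolves fibrin. Of 11 members tested 4 rose, Serpinb2 included, 1 fell and 6 did not pass, where 9.65% of all genes rose and 5.51% fell. The median change was 0.75, against 0.09 for all genes. Plaur, the receptor for urokinase, rose from 44.4 and 29.5 to 162 and 155 FPKM. The protein C receptor Procr rose from 29.9 and 27.3 to 87.4 and 83.9 FPKM. These receptors were thus higher in both PH libraries than in both normal ones, as were 36.9% of all genes tested. The activators gave a less certain picture: Plau (urokinase) was at 9.91 and 2.41 FPKM before and 25.4 and 29.2 after (adjusted p = 0.0558), and Plat (tissue activator) at 78.1 and 76.4 before and 97.6 and 139 after (adjusted p = 0.136). F3, tissue factor, which starts coagulation, fell from 140 and 160 to 93.6 and 77.0 FPKM. Plasminogen itself (Plg), a hepatocyte product, was listed at 0 in all 4 libraries.

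Genes for hyaluronan, the large sugar polymer of loose matrix, formed the next group, in which 5 of 12 tested members rose (median change 1.67). Cemip, which binds hyaluronan and is needed for its breakdown (chromosome 7, 91081367 to 91235015, minus strand), was at 0 and 0.0200 FPKM in Norm NPD and at 12.6 and 10.5 in PH NPD, a change of 3.63 (SE 0.26, adjusted p = 0.00757). The synthase Has1 rose from 36.8 and 35.5 to 141 and 243 FPKM. The receptor Cd44 rose from 6.67 and 4.81 to 84.0 and 67.3 FPKM, a change of 3.51 (SE 0.22). All 3 were higher in both PH libraries than in both normal ones, as were 36.9% of all genes tested. Versican (Vcan), a proteoglycan that binds hyaluronan, rose from 2.91 and 1.67 to 19.9 and 19.2 FPKM, and the cell-surface hyaluronidase Tmem2 (Cemip2) from 4.25 and 2.81 to 17.1 and 13.7. The endocytic receptors of endothelium, Lyve1 and Stab2, did not pass; Lyve1 was at 11.8 and 0.576 FPKM before and 1.28 and 0.511 after. Synthesis, breakdown and receptor genes were therefore all among the 5.

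**Figure D2:**
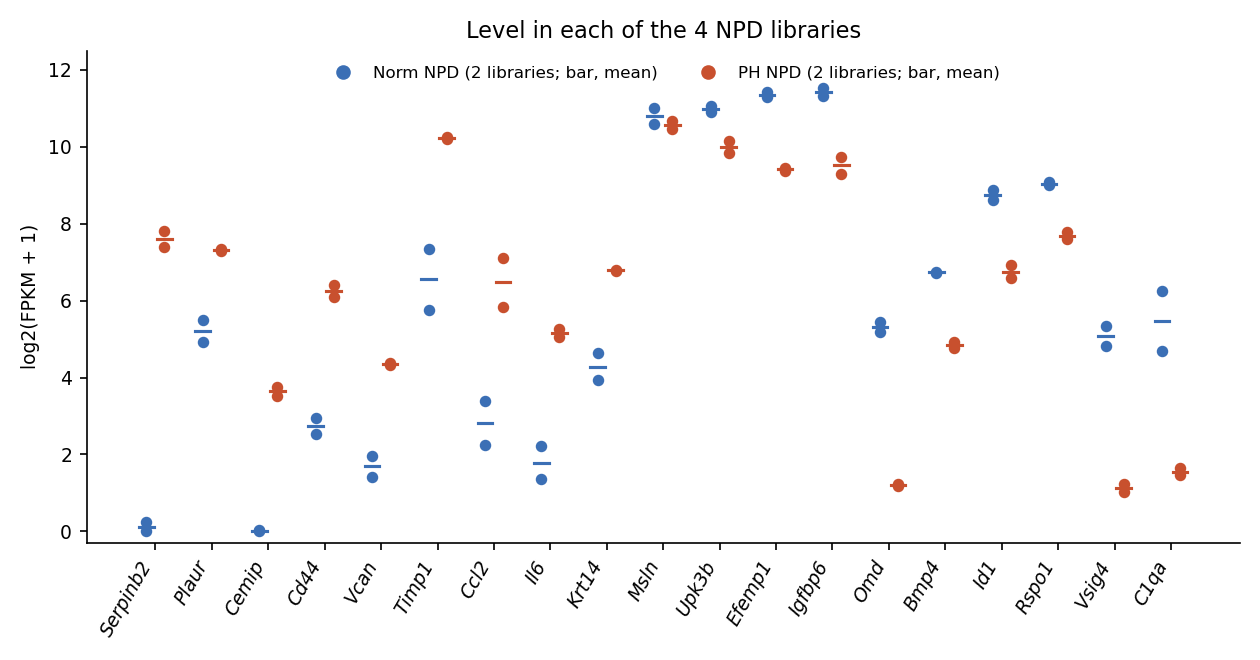
Level of 19 genes in each of the 4 NPD libraries as log2(FPKM + 1); blue, Norm NPD; orange, PH NPD; bars, means of 2 libraries. Serpinb2 and Cemip are near 0 in both normal libraries and high in both PH libraries, the Msln values of the groups overlap, and Omd, Vsig4 and C1qa run the other way.

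Genes of DNA replication rose as a group. Of 42 members of the S phase list, all of them tested, 32 rose, where 9.65% of all genes rose, and all 42 had a positive change; the median was 1.94. Uhrf1, which brings the maintenance methyltransferase to newly copied DNA (chromosome 17, 56442760 to 56462909), went from 0 and 0.337 to 38.6 and 31.1 FPKM, a change of 4.95 (SE 0.26, adjusted p = 0.00631). Rrm2, the regulated subunit of ribonucleotide reductase, rose from 3.10 and 0.717 to 43.6 and 26.5 FPKM. All 6 subunits of the Mcm2 to Mcm7 helicase were among those that rose, with changes from 1.93 for Mcm4 to 3.35 for Mcm5. Cyclin E1 (Ccne1), which drives entry into S phase, rose from 0 and 0.227 to 13.5 and 11.4 FPKM, and the clamp Pcna from 32.1 and 19.8 to 89.0 and 75.3. Hells, a chromatin remodeller that assists DNA methylation and was not on the list, rose from 0 and 0.877 to 25.9 and 20.03 FPKM (4.12, SE 0.37). Among the 10 that did not pass, Gins4 was at 18.5 and 15.4 FPKM before and 19.3 and 18.2 after.

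Genes of mitosis pointed the same way with fewer calls. All 32 members had a positive change, with a median of 1.72, and 11 passed. Top2a, the topoisomerase that untangles chromosomes, went from 4.08 and 0.286 to 41.1 and 20.1 FPKM (3.54, SE 0.71, adjusted p = 0.0352). Birc5 (survivin) rose from 0.576 and 0.813 to 19.3 and 6.87 FPKM, and the proliferation marker Mki67 from 2.18 and 0.592 to 18.3 and 8.32. In these 3 genes PH NPD 1 was more than 2 times PH NPD 2. Cyclin B1 (Ccnb1) did not pass, with 1.42 and 0.203 FPKM before and 2.40 and 1.08 after. Without a filter on low values 0 mitosis genes passed (limma; 20 of 32 at an unadjusted p under 0.05). In the fit of all libraries 6 mitosis and 27 S phase genes passed, and leaving out Norm NPD 2 or PH NPD 1 from it took the mitosis count to 0 (limma; 4 and 2 at an unadjusted p under 0.05) and that of S phase to 21 and 18.

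Of 13 G1 regulators tested 5 rose, 2 fell and 6 did not pass (median 0.72), and without a filter on low values 1 rose and 0 fell. The kinases Cdk4 (63.1 and 71.8 to 183 and 163 FPKM) and Cdk2 (12.51 and 8.99 to 29.3 and 24.1) rose, as did cyclin D1 (Ccnd1, 52.4 and 49.7 to 99.6 and 96.4), the growth regulator Myc (20.3 and 10.2 to 49.8 and 44.4) and the pocket protein Rbl1 (2.13 and 3.94 to 12.52 and 9.08). The kinase inhibitor Cdkn1b (p27) fell from 57.0 and 43.5 to 25.4 and 21.0 FPKM, and Cdkn1c (p57) from 5.38 and 8.47 to 1.47 and 1.66. A further inhibitor, Cdkn1a (p21), did not pass, with 43.5 and 21.8 FPKM before and 48.7 and 46.7 after.

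**Figure D3:**
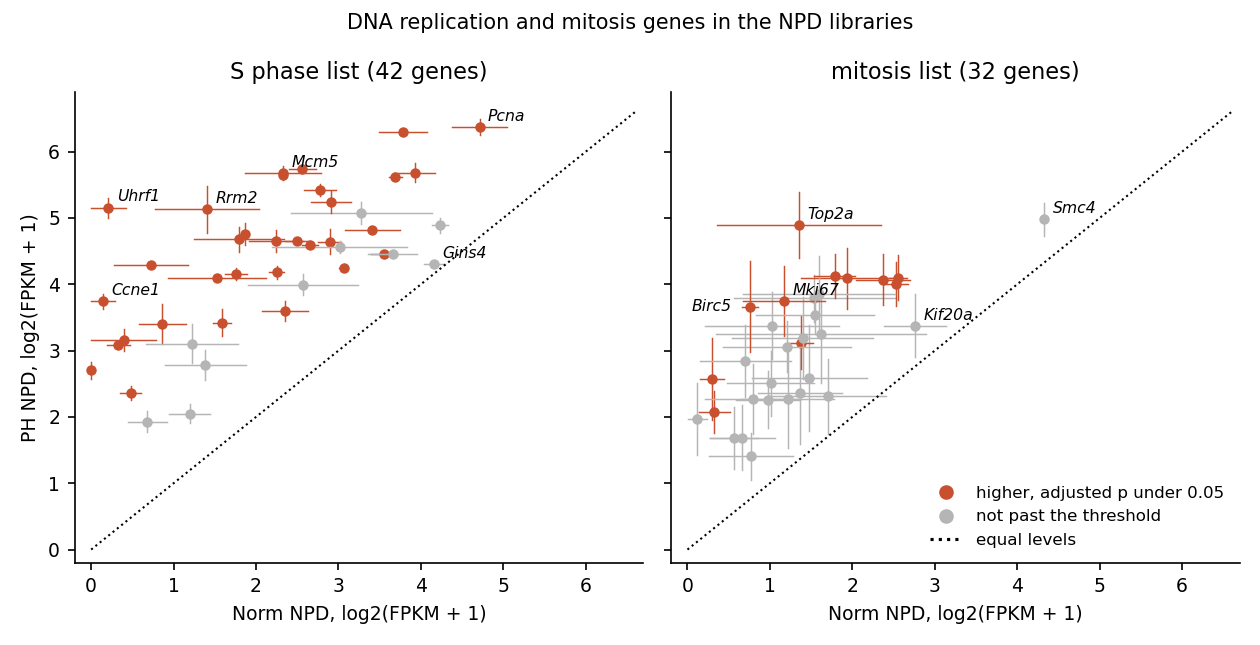
Level in PH NPD against level in Norm NPD, log2(FPKM + 1), for the 42 S phase and 32 mitosis genes; points are means of 2 libraries, lines join the 2 libraries and the dotted line marks equal levels. All 74 points lie above the line, 32 S phase genes and 11 mitosis genes are past the threshold.

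Promoters are shown for 4 genes of these lists and for Hells, all of which rose. The sequences are those of RefSeq (GRCm38.p6, a later build than that of the expression table), 250 bases before to 50 after a transcript start, with the gene's strand written 5′ to 3′. Capitals mark, for Uhrf1 (chr17:56304063-56304362, plus strand, the second of 2 starts listed), Hells (chr19:38930740-38931039, plus) and Mcm5 (chr8:75109259-75109558, plus), matches to the E2F motif, searched as TTTCCCGC, TTTGGCGC, TTTCGCGC or TTTGCCGC on both strands; in Mcm5, matches on both strands overlap and the run is their union. For Top2a (chr11:99024140-99024439, minus) and Mki67 (chr7:135716330-135716629, minus) capitals mark the cell cycle homology region (CHR), searched as TTTGAA on both strands.
Uhrf1: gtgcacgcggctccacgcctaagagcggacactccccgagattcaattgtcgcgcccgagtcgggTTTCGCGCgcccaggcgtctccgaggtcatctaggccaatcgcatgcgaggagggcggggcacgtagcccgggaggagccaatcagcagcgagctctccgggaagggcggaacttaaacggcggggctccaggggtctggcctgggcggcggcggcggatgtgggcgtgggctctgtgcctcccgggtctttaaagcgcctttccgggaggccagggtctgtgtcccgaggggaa
Hells: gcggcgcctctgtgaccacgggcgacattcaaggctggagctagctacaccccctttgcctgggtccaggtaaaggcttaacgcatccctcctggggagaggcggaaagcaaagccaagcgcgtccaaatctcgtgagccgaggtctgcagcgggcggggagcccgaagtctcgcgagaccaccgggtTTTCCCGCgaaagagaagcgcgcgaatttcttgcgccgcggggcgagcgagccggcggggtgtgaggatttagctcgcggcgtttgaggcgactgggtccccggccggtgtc
Mcm5: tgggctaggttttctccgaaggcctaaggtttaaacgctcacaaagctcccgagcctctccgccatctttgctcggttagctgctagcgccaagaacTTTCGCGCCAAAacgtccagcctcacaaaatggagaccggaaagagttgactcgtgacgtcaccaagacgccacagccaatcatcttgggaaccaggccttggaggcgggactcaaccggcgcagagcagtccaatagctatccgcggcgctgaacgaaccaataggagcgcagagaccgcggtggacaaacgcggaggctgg
Top2a: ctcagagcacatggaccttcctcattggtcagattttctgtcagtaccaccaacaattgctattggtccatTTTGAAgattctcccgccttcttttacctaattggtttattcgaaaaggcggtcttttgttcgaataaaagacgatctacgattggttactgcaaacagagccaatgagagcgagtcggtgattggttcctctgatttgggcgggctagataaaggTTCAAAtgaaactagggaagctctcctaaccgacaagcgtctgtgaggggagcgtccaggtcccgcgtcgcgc
Mki67: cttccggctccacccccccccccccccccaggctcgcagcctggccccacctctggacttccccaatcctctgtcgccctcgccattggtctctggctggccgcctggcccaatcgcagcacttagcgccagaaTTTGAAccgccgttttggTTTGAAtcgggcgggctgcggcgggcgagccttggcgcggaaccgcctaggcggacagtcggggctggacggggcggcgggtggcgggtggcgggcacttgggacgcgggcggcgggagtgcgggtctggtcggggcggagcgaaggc

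The E2F motif stood in a listed promoter of 13 of the 34 S phase genes with an entry (38.2%) and of 3.29% of 17491 protein-coding genes. These matches are a description. The CHR letters stood in 21 of 28 mitosis genes and in 18.5% of protein-coding genes. The reverse pairings were lower: 14.7% of the S phase genes held the CHR letters and 10.7% of the mitosis genes the E2F letters. That 10.7% was still above the 3.29% of protein-coding genes. The E2F letters also stood in 3 of 16 genes for making ribosomes (18.8%), the list described next. Birc5, which rose, held no CHR match in its window. The first Uhrf1 window (chr17:56303087-56303386, plus strand), which is not shown, held no E2F match.

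Of 20 genes for making ribosomes 13 rose, where 9.65% of all genes rose, and all 20 had a positive change (median 1.21). Srm, spermidine synthase, went from 16.9 and 16.5 to 99.0 and 112 FPKM (2.59, SE 0.16, adjusted p = 0.00637), and fibrillarin (Fbl), the methyltransferase of ribosomal RNA, from 4.23 and 4.17 to 21.0 and 19.9. Both pairs of libraries agreed closely in these genes. Of 16 glycolysis genes 9 rose, 1 fell and 6 did not pass (median 1.05). The lactate exporter Slc16a3 (MCT4) rose from 1.29 and 3.61 to 51.3 and 38.1 FPKM, hexokinase 2 (Hk2) from 0.321 and 0.648 to 8.90 and 10.0, and lactate dehydrogenase A (Ldha) from 52.1 and 31.6 to 264 and 227. The other monocarboxylate carrier on the list, Slc16a1 (MCT1), fell from 481 and 400 to 188 and 226 FPKM.

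Many genes that hepatocytes express strongly have an exact 0 in other sorts of this table, so their changes are less certain. When genes reaching 10 FPKM on average in a hepatocyte group were left out, 1241 of 8566 genes tested passed in NPD, 702 higher and 539 lower. In that restricted test 19 S phase, 11 mitosis, 13 matrix, 7 ribosome and 4 glycolysis genes were higher, against 702 of all 8566. List members that reach 10 FPKM in hepatocytes are not in these counts. The largest changes among the genes left out include Scd1 (stearoyl-CoA desaturase), listed at 0 in both Norm NPD libraries and at 36.01 and 36.2 FPKM in PH NPD. Fkbp11, a prolyl isomerase of the secretory pathway, went from 0.550 and 1.28 to 53.4 and 50.5 FPKM, and Tsku (tsukushi) from 0.463 and 0.271 to 28.1 and 25.0. The sulfotransferase Sult1a1 fell from 32.3 and 32.2 to 0.705 and 0 FPKM, and the small GTPase Rab17 from 59.0 and 40.8 to 1.92 and 3.49.

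Among genes of extracellular matrix and its proteases 14 of 30 rose and 1 fell, with a median of 0.94. Timp1, an inhibitor of metalloproteinases (chromosome X, 20447292 to 20451863, plus strand), rose from 163 and 52.9 to 1169 and 1222 FPKM, a change of 3.67 (SE 0.53, adjusted p = 0.0181). Its relative Timp2 fell from 807 and 974 to 290 and 334 FPKM, so the 2 inhibitors moved in opposite directions. Stromelysin 1 (Mmp3) rose from 0.658 and 0.346 to 8.53 and 9.43 FPKM. The basement membrane collagens Col4a1 (25.8 and 21.6 to 145 and 108 FPKM) and Col4a2 (19.8 and 15.0 to 81.9 and 63.6) rose, and fibronectin (Fn1) rose from 54.1 and 61.1 to 191 and 110. The interstitial collagens were not called: Col1a1 was at 240 and 132 FPKM before and 312 and 324 after (adjusted p = 0.138). In the fit of all libraries 5 of these genes were higher.

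Among keratins, junction proteins and mesenchymal regulators 5 of 27 rose (median 0.63), where 9.65% of all genes rose. Krt14, a keratin of basal epithelia, rose from 24.0 and 14.2 to 110 and 108 FPKM (2.50, SE 0.27, adjusted p = 0.0106). The simple-epithelium keratins Krt8 and Krt18 rose from 200 and 109 to 619 and 587 FPKM and from 407 and 222 to 960 and 904. N-cadherin (Cdh2) and P-cadherin (Cdh3) rose by 1.13 and 0.92. Vimentin (Vim), the intermediate filament of mesothelium and mesenchyme, was at 2410 and 1989 FPKM before and 2218 and 2129 after. E-cadherin (Cdh1) was at 52.1 and 62.5 before and 120 and 71.6 after (adjusted p = 0.163). In the fit of all libraries 1 of the 27 was higher.

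The 15 mesothelial markers had a median change of -0.67, with 6 lower and 1 higher, where 5.51% of all genes fell and 9.65% rose. Msln itself (chromosome 17, 25885558 to 25891272) was at 2074 and 1548 FPKM before and 1420 and 1622 after, and its groups overlapped (-0.24, SE 0.25, adjusted p = 0.548; 0.29 with quantile normalization). Upk3b (chromosome 5, 136514366 to 136520863) was at 1902 and 2151 before and 921 and 1144 after, a difference of -0.98 (SE 0.23) with an adjusted p of 0.0505. Both genes stayed above 900 FPKM in each PH library. Efemp1 (fibulin 3) fell from 2500 and 2741 to 659 and 704 FPKM (-1.94, SE 0.21, adjusted p = 0.0106), and Igfbp6 from 2955 and 2569 to 632 and 856. Gpm6a, Rspo1, Cldn15 and Bnc1 fell by 0.94 to 1.35. Ptgis, prostacyclin synthase, rose from 381 and 238 to 1065 and 1226 FPKM. The transcription factor Wt1 was at 113 and 134 before and 119 and 121 after. In the fit of all libraries 0 of the 15 passed (limma; 6 at an unadjusted p under 0.05).

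The 21 biliary markers tested gave no call (limma; 5 had an unadjusted p under 0.05), and 19 had a positive change, with a median of 0.44. Spp1 (osteopontin), the most abundant of them, was at 2177 and 1374 FPKM before and 2666 and 1505 after. Krt19 was at 900 and 593 before and 1103 and 1287 after (adjusted p = 0.150). Epcam was at 42.8 and 39.3 before and 58.9 and 34.7 after, with overlapping groups. Of 25 genes of the primary cilium, which cholangiocytes use to sense flow, 1 fell, no more than the 5.51% of all genes: Bbs4, from 11.8 and 11.1 to 5.46 and 3.73 FPKM.

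**Figure D4:**
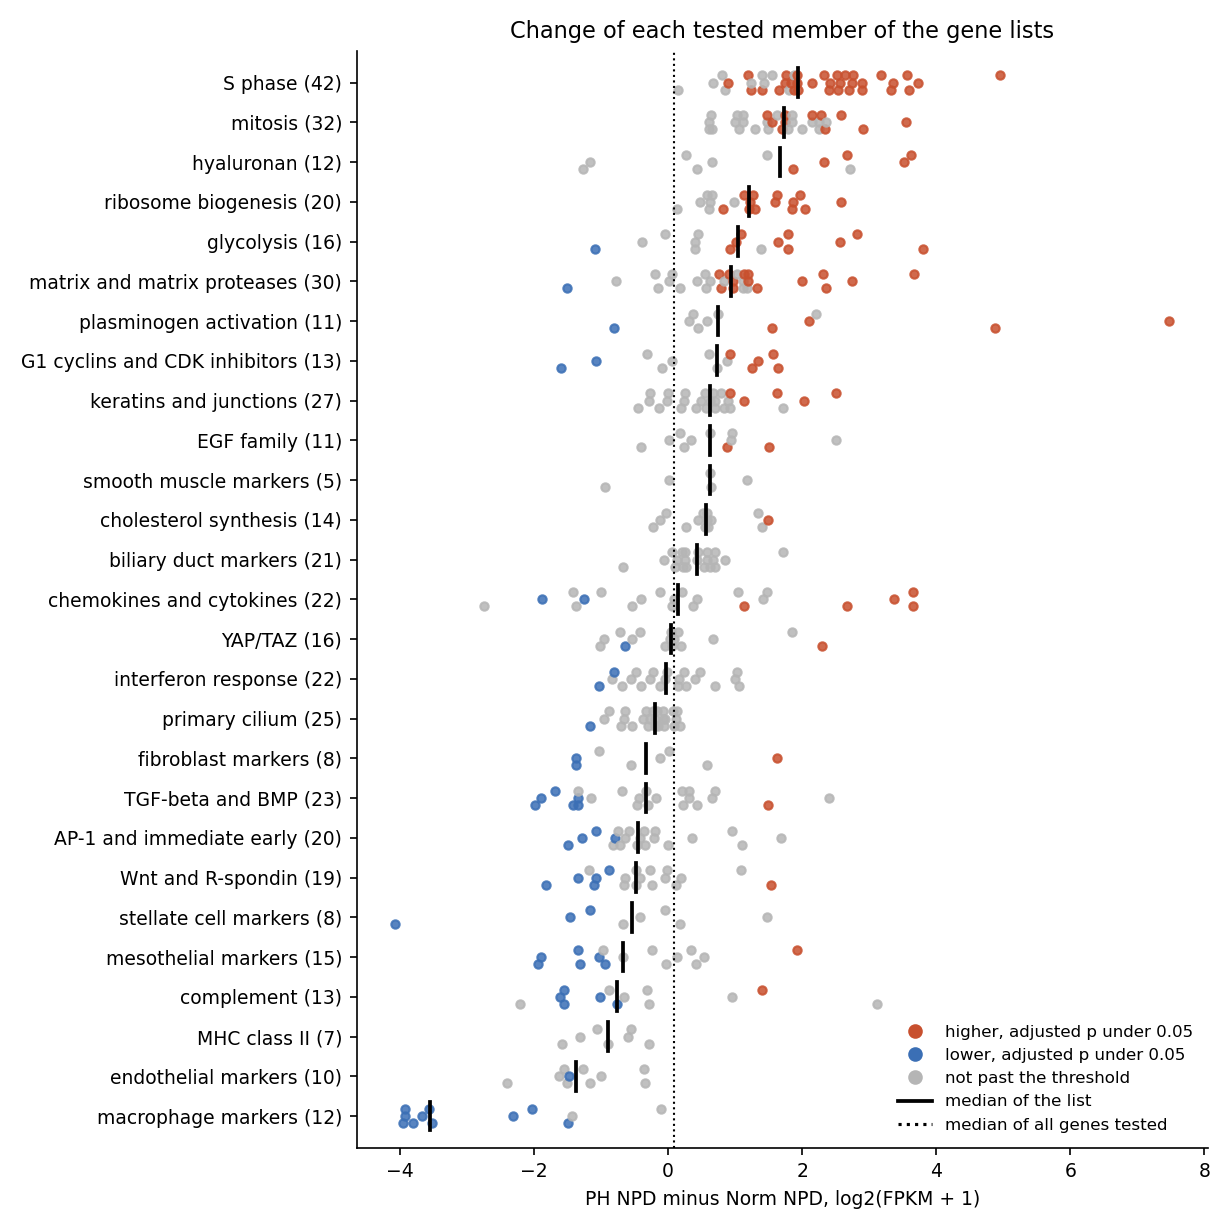
Change of each tested member of 27 gene lists (PH NPD minus Norm NPD, log2(FPKM + 1)); orange, risen; blue, fallen; grey, not past the threshold; black bars, list medians; dotted line, the median of all genes tested (0.09). S phase (median 1.94) and mitosis (1.72) stand at the right end and macrophage markers (-3.55) at the left.

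Secreted signals moved in both directions. In the TGF-beta and BMP list 1 of 23 rose and 6 fell, with a median of -0.34, where 5.51% of all genes fell. The ligand Bmp4 fell from 105 and 107 to 26.3 and 29.3 FPKM (-1.89, SE 0.16, adjusted p = 0.00871) and Tgfb3 from 116 and 122 to 43.6 and 44.4. The BMP target genes Id1 (469 and 389 to 94.7 and 121) and Id3 (594 and 402 to 135 and 169) fell, as did the antagonists Fst (follistatin, by 1.35) and Bambi (by 1.34). The ligand and target genes that fell had no overlap between the groups, as was so for 27.6% of all genes tested in that direction. Picking genes that passed the test favours this, so it adds no support. Inhba, the activin A subunit, rose from 2.997 and 4.32 to 9.62 and 14.9 FPKM.

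In the Wnt list 1 of 19 rose and 5 fell, where 9.65% of all genes rose and 5.51% fell. Rspo1, an R-spondin that strengthens Wnt signalling and marks mesothelium, fell from 510 and 540 to 192 and 219 FPKM (-1.35, SE 0.19, adjusted p = 0.0169). The secreted inhibitor Sfrp1 fell from 9.22 and 12.1 to 1.96 and 2.60, and Wnt5a, Wnt11 and the receptor Fzd7 fell by 0.88 to 1.11. Wnt4 rose from 21.0 and 15.5 to 53.5 and 55.4 FPKM. Axin2, a common target of the pathway, was at 7.12 and 8.04 before and 6.61 and 5.64 after (adjusted p = 0.422).

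Of 11 genes of the EGF family 2 rose, where 9.65% of all genes rose. Both were ligands: epiregulin (Ereg), from 0.485 and 0.335 to 2.69 and 3.29 FPKM, and Tgfa, from 15.99 and 14.6 to 32.0 and 26.2. Their receptor Egfr was at 2.12 and 11.4 before and 36.7 and 32.3 after (adjusted p = 0.0590). The normal libraries differ widely for this receptor.

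Of 22 chemokines and cytokines 5 rose and 2 fell, where 9.65% of all genes rose and 5.51% fell. Ccl2, which attracts monocytes (chromosome 11, 81849079 to 81850954), rose from 9.53 and 3.74 to 137 and 56.1 FPKM (3.65, SE 0.55, adjusted p = 0.0192), and its neighbour Ccl7 (81859214 to 81861025) from 4.13 and 1.202 to 49.9 and 33.8. Il6, a cytokine that acts on hepatocytes in regeneration, rose from 3.64 and 1.57 to 32.2 and 37.7 FPKM. The neutrophil attractant Cxcl5 rose from 0.841 and 0.0311 to 7.62 and 7.99, and Lif, a relative of Il6, from 3.60 and 2.45 to 8.29 and 7.13. Cxcl13 and Il18 fell, Il18 from 173 and 113 to 55.1 and 61.3 FPKM. The list median of 0.15 was close to that of all genes.

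Of 20 AP-1 and immediate early genes, which respond fast to many stimuli, 4 fell, where 5.51% of all genes fell. Nr4a1, an orphan nuclear receptor, fell from 751 and 617 to 227 and 255 FPKM (-1.49, SE 0.21), and Klf2, Btg2 and Jund fell by 0.79 to 1.28. Fos was at 2307 and 1520 FPKM before and 1118 and 1102 after (adjusted p = 0.128), and 0 of the 20 passed in the fit of all libraries (limma; 3 at an unadjusted p under 0.05). Of 16 YAP/TAZ genes the receptor tyrosine kinase Axl rose (40.3 and 27.5 to 162 and 173 FPKM) and the coactivator Wwtr1 (TAZ) fell by 0.65. Over all genes 9.65% rose and 5.51% fell, so these counts do not set the list apart. The matricellular target Ctgf (Ccn2) was at 96.3 and 113 before and 132 and 108 after. Of 22 interferon-response genes 2 fell, Gbp2 (522 and 528 to 242 and 272 FPKM) and Gbp3, a share near the 5.51% of all genes, and the list median was -0.03.

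Of 13 complement genes 5 fell and 1 rose. Serping1, the C1 inhibitor, fell from 3146 and 2837 to 903 and 1151 FPKM, and C4b, C2 and C1ra fell by 0.77 to 1.62. Factor B (Cfb) rose from 514 and 296 to 939 and 1142 FPKM. C3 was the most abundant of the list, at 8613 and 10534 FPKM before and 6920 and 8475 after. All 6 called genes exceed 10 FPKM in a hepatocyte group, so none of them was in the restricted test, and 2 passed in the fit of all libraries.

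Markers of macrophages were lower after PH: 10 of 12 tested fell, with a median of -3.55, where 5.51% of all genes fell. Clec4f, a lectin of Kupffer cells, fell from 53.7 and 15.4 to 1.43 and 0.596 FPKM (-3.93, SE 0.60, adjusted p = 0.0199), and the complement receptor Vsig4 from 39.6 and 27.3 to 1.34 and 1.05 (-3.95, SE 0.26). C1qa, C1qc and lysozyme (Lyz2) fell from 75.8 and 25.0 to 2.12 and 1.77, from 58.3 and 29.8 to 2.38 and 2.29, and from 119 and 41.9 to 3.48 and 4.81 FPKM. Norm NPD 1 was above Norm NPD 2 for all of these, and both were above both PH libraries. In Norm KC the means were 3906 FPKM for Clec4f and 3636 for C1qa. Ctss, a lysosomal protease that is not on the list, fell from 41.1 and 18.5 to 1.70 and 1.02. The mean log2(FPKM + 1) of the macrophage list went from 4.31 to 1.69 in NPD. It was also lower after PH in BEC (4.17 to 0.78), cBEC (2.53 to 0.57) and Thy1 (3.37 to 1.68). Against each of these sorts 0 of 13 macrophage markers differed in response (limma, adjusted p under 0.05). At an unadjusted p under 0.05 (limma) the count was 0 against BEC, 0 against cBEC and 1 against Thy1. Standard errors were large, such as 1.68 for Clec4f against BEC, so these counts do not show that the sorts responded alike. The summed FPKM of the 13 markers was 582 and 276 in Norm NPD and 56.9 and 47.9 in PH NPD, and in bulk samples fewer cells of a type and less RNA per cell cannot be told apart.

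The part of macrophage RNA in the other changes was not tested. The counts of genes higher in Kupffer cells that follow do not measure it. Of the 717 genes that fell, 56 (7.81%) were more than 5 times higher in Norm KC than in Norm NPD (ratio of mean FPKM + 1), and of the 1257 that rose, 65 (5.17%); of all genes tested it was 4.13%. Without those genes 1919 passed, 677 of them lower. In the fit of all libraries 6 of the macrophage markers were lower.

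Markers of other cell types were fewer among the calls than those of macrophages. Of 10 endothelial markers all had a negative change (median -1.38) and Kdr fell, from 108 and 164 to 40.9 and 54.1 FPKM; Pecam1 was at 15.3 and 1.33 before and 1.92 and 0.501 after. The summed endothelial markers were at 477 and 356 FPKM in Norm NPD and 206 and 213 in PH NPD. Of 8 stellate cell markers 3 fell, where 5.51% of all genes fell: Colec11, a soluble lectin (32.2 and 22.2 to 0.508 and 0.808 FPKM), Dcn (decorin, 3418 and 2911 to 1104 and 1181) and Ecm1 (333 and 321 to 144 and 146). The defining stellate gene Lrat stayed under 0.8 FPKM in each of the 4 libraries. Of 8 fibroblast markers Thy1 (86.5 and 74.6 to 27.3 and 33.7) and Entpd2 fell and Pdgfra rose, from 2.38 and 1.33 to 9.23 and 6.33. The 13 lymphocyte markers summed to 7.05 and 0.677 FPKM in Norm NPD and 0.525 and 0.0881 in PH NPD, and the 10 neutrophil markers to 19.8 and 1.52 and to 0.667 and 0.683; none of either list reached the level needed for a test. The 7 MHC class II genes had a median of -0.90 with no call (limma; 2 at an unadjusted p under 0.05); Cd74 was at 252 and 96.2 before and 73.3 and 94.6 after. Of 12 hepatocyte markers 11 were listed at 0 in both Norm NPD libraries and in PH NPD 2, and 7 in PH NPD 1, where Cps1 was at 22.1 FPKM and Apob at 9.49. Of the smooth muscle and platelet markers none passed (2 of 5 and 2 of 3 at an unadjusted p under 0.05); Acta2 was at 63.1 and 25.6 before and 74.0 and 53.1 after, and Itga2b at 3.20 and 1.76 before and 6.10 and 6.96 after.

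The remaining large falls were in genes of matrix and of less studied function. Omd (osteomodulin), a small leucine-rich proteoglycan (chromosome 13, 49678116 to 49687978, plus strand), fell from 35.6 and 42.5 to 1.26 and 1.33 FPKM, a change of -4.12 (SE 0.20, adjusted p = 0.00631). Lrrc31, a leucine-rich repeat protein, fell from 35.1 and 38.4 to 1.31 and 2.20 FPKM. Mturn (maturin) fell from 58.4 and 55.5 to 4.04 and 3.92. In these 3 genes the 2 libraries of each group lay close together and far from the other group. All 3 were ranked among called genes without overlap between the groups. That choice favours such a pattern, which is therefore no test of them.

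The next comparison asked whether NPD responded differently from the biliary sorts and from Thy1 cells. The response (PH minus normal) of NPD was set against that of each other population in a fit of all 55 libraries, and the 3 comparisons share the NPD libraries. Against BEC 722 of 16527 genes differed (4.37%), 557 with the higher response in NPD (3.37%) and 165 with the lower (0.998%). Against cBEC 627 differed (3.79%), 484 of them higher (2.93%) and 143 lower (0.865%), and without PH cBEC 1 the count was 573. Against Thy1 216 differed (1.31%), 177 of them higher (1.07%) and 39 lower (0.236%). Without PH Thy1 2 the balance turned, with 55 higher and 72 lower. With quantile normalization the share with the higher response in NPD went from 77.1% to 53.9% for BEC, from 77.2% to 48.1% for cBEC and from 81.9% to 49.5% for Thy1.

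Serpinb2 was at 0 in all 4 Norm BEC libraries and at 0.119 and 0.130 FPKM in PH BEC, so the response of NPD was higher by 7.31 (SE 0.67, limma adjusted p = 2.18e-10). In cBEC it was at 0 to 1.56 FPKM before and 6.71 and 1.77 after. Of the S phase list 23 of 42 genes had a higher response in NPD than in BEC and 20 of 42 than in cBEC, where 3.37% and 2.93% of all genes did. Of the hyaluronan list 5 and 4 of 13 did. The median difference over the S phase list was 2.61 against BEC and 2.29 against cBEC, above its median change of 1.94 in NPD. Part of the difference thus lay in S phase genes that were lower after PH in the biliary sorts. Uhrf1 was at 1.89 to 5.30 FPKM in Norm BEC and at 2.32 and 2.30 in PH BEC, a response lower than that of NPD by 5.48 (SE 0.86, adjusted p = 2.84e-05). The biliary sorts had more Uhrf1 than NPD before PH and less after it.

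The Thy1 sort was next to NPD in mesothelial markers. Of the S phase list 0 of 42 genes and of the mitosis list 0 of 32 differed in response (limma; 7 and 0 at an unadjusted p under 0.05), but all of them had the higher response in NPD, with medians of 1.193 and 1.501 against 0.15 for all genes. Serpinb2 was at 0.0860 and 0.104 FPKM in Norm Thy1 and at 170 and 214 in PH Thy1, and the difference of responses was 0.03 (SE 0.72, adjusted p = 1). Cemip was at 0.0527 and 0.0408 before and 8.205 and 4.39 after, Cd44 at 7.23 and 8.51 before and 73.2 and 52.1 after, and Omd at 14.7 and 8.77 before and 2.41 and 0.368 after. Il6 set the sorts apart: it was at 21.5 and 47.0 FPKM in Norm Thy1 and at 76.1 and 13.4 in PH Thy1, and the response of NPD was higher by 3.36 (SE 0.83, adjusted p = 0.0261). With only the 4 groups in the fit no gene differed between the responses of NPD and Thy1 (limma; 1088 at an unadjusted p under 0.05, smallest adjusted p 0.183). A p that misses the threshold does not show that the sorts respond alike.

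**Figure D5:**
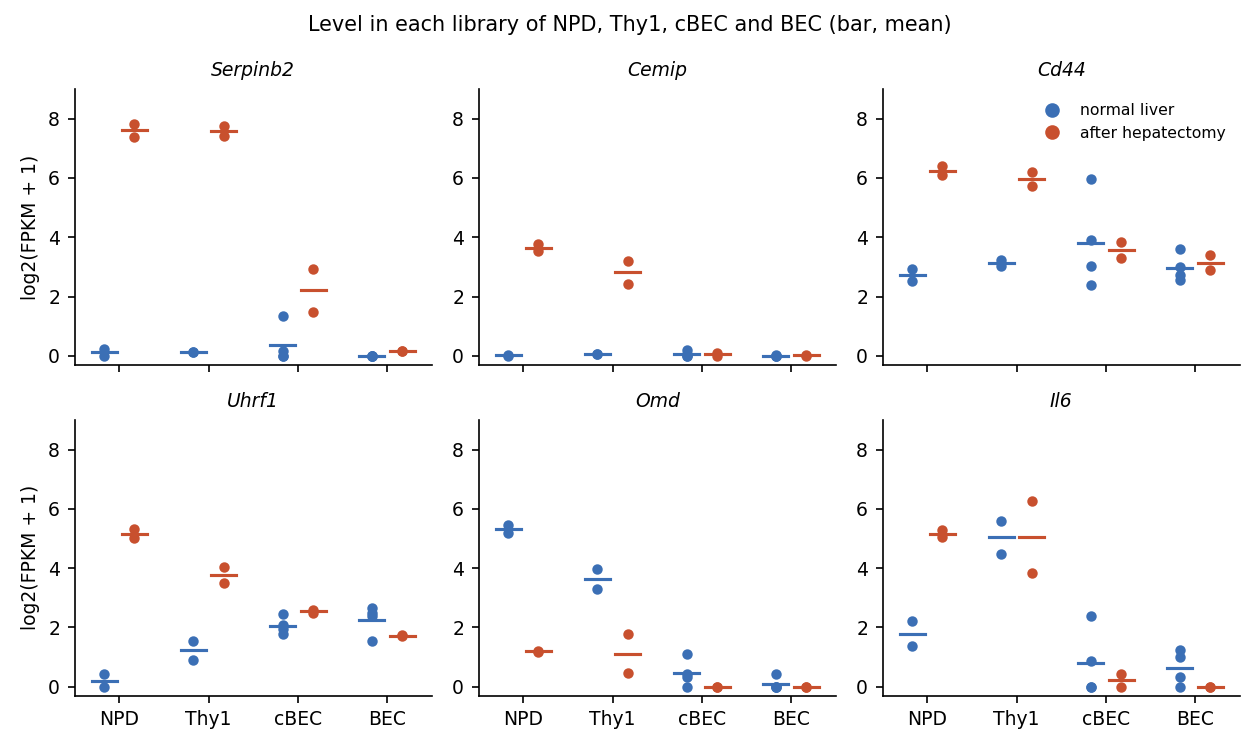
Level of 6 genes, log2(FPKM + 1), in each library of NPD, Thy1, cBEC and BEC; blue, normal; orange, after PH; bars, means. Serpinb2, Cemip and Cd44 are higher in the PH than in the normal libraries of NPD and Thy1, and Omd is higher in the normal libraries of those 2 sorts; in BEC each of these 6 genes stays under 12 FPKM in every library.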

How the data were processed

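The authors deposited 1 table of FPKM values for 55 libraries, with 36141 transcript rows. FPKM is the authors' word; how reads were counted and how deep the libraries are is not given in the sources used here. The submitters' processing notes name CASAVA 1.8.2, Bowtie 1.0.0 and the build mm9, without their roles.

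Each of 24478 symbols was represented by its row of highest mean FPKM across the table. Coordinates are those of the deposited table, counted from 1. Values were analysed as log2(FPKM + 1) with limma 3.58.1 (R 4.3.3; trend and robust settings, two-sided, Benjamini-Hochberg adjustment over all genes tested), without a replicate block. PH NPD was tested against Norm NPD in those 4 libraries. Differences of responses, and Norm NPD against Norm BEC, were tested in a fit of all 55 libraries in 20 groups, over genes with at least 1 FPKM in at least 2 libraries. On data simulated for the NPD comparison (13024 genes, 200 changed), 57 of 200 changes of 2 and 138 of 200 changes of 3 on the log2 scale were recovered. In the real data 1974 genes were called, far more than were changed there, so these rates may not carry over. Figures were drawn with matplotlib 3.10.9 in Python 3.11.15.

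The rule named the 10 largest rises and falls among genes under 10 FPKM in both hepatocyte groups and the 3 largest among the others. These had an adjusted p under 0.05 (limma), a change of at least 1 and no overlap. It also named the 2 largest passing members in each direction per list, or the most abundant member where none passed. Msln, Upk3b, Serpinb2 and Cemip were always named. Further genes, both those that passed and those that did not, were picked with their values in view. Certain selected genes are not reported here. The genes, lists and tests were chosen with earlier results of these data known. Alternatives were the pseudocount, the filter, the scaling, the libraries in the fit, the replicate block, the row rule and each library left out.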

Additional observations from a re-analysis of the deposited data

Results flagged for a closer look

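The response to PH differed between NPD and BEC for 722 genes, between NPD and cBEC for 627 and between NPD and Thy1 for 216, each by limma's test of the difference of responses. The values below are those differences on the log2(FPKM + 1) scale for genes among the largest in each direction.

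Against BEC the response of NPD was higher for Serpinb2 (7.31) and Uhrf1 (5.48), and lower for Omd (-4.02), Lrrc31 (-3.74) and Slc4a11 (-3.53). Slc4a11, a membrane transporter, fell in NPD from 89.8 and 107 to 11.3 and 11.2 FPKM, and was between 1.58 and 4.44 in every BEC library. Against cBEC it was higher for Serpinb2 (5.65), and lower for Slc4a11 (-3.67), Omd (-3.65) and Colec11 (-3.53).

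Against Thy1 the response was higher for Tbx1 (3.54), Il6 (3.36) and F2rl1 (3.03), and lower for Sprr2b (-4.52), Plxnc1 (-4.39) and Inhbb (-4.07). F2rl1, a protease-activated receptor, went from 7.79 and 5.43 to 21.3 and 13.5 FPKM in NPD and from 13.7 and 12.47 to 3.37 and 2.89 in Thy1. Inhbb, the activin B subunit, was between 2.40 and 3.89 FPKM in all 4 NPD libraries and went from 2.75 and 7.38 to 54.7 and 103 in Thy1, and Plxnc1, a semaphorin receptor, went from 7.22 and 17.5 to 96.7 and 237 there. Tbx1 was at 65.9 FPKM in Norm Thy1 1 and at 3.82 in Norm Thy1 2, so its value rests on 1 library. Sprr2b belongs to a family of near-identical genes, and its reads are uncertain.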

How the results depend on the processing

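Depth is unknown and each NPD group has 2 libraries, which limits the precision. For PH NPD against Norm NPD, the count was 648 without a filter, 1241 over genes low in hepatocytes and 2237 with quantile normalization. Leaving out 1 library gave 0 to 5419, and in the fit of all libraries 915 to 1625 (1056 without Norm NPD 1, 915 without PH NPD 1, 1005 without PH NPD 2; these fits, the removal of Kupffer-cell genes and the filter on 3 libraries were added after seeing the data). Same-numbered libraries shared only a number (correlation of deviations 0.0887, 2 pairs), and a replicate block gave 2537. Leaving out 1 library cannot change the sign of a gene whose groups do not overlap. Of the 73 called genes named by the rule, all kept their sign in every setting run, and 43 to 73 stayed called except in the fits that left out a PH NPD library (0) or pooled all libraries with 1 left out (30 to 34). NPD against BEC responses gave 1218 with only those groups and 375 to 758 with 1 library left out (375 and 457 without PH NPD 1 or 2, 448 and 404 without PH BEC 1 or 2). NPD against cBEC gave 382 with a pseudocount of 0.1, 369 with only those groups, 250 with the replicate block and only those groups together, and 320 to 740 with 1 library left out (320 without PH NPD 1, 326 without PH cBEC 2). NPD against Thy1 gave 45 with a pseudocount of 0.1, 467 without a filter, 0 with only those groups and 0 with the replicate block added to that fit (limma; 1088 unadjusted in the former), and 87 to 557 with 1 library left out (127 without PH Thy1 2), moving by over 1.5 times for each of the 8 libraries but PH NPD 2. Norm NPD against Norm BEC, at 5523, stayed within 1.5 times, with 3744 to 5309 when 1 library was left out and 3814 with the replicate block and only those groups together. Genes that did not pass changed sign in places: Msln was 0.29 with quantile normalization, Spp1 ran from -0.20 (without PH NPD 1) through -0.12 (without Norm NPD 2) to 0.62 (without PH NPD 2), and Acta2 from -0.0086 (without Norm NPD 2) to 1.26 (without Norm NPD 1), in both kinds of fit. The cause was not tested.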

Other observations

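Other gene families that moved in NPD were picked after their values were seen and are given as values. Of 15 small leucine-rich proteoglycans, which organise collagen fibrils, 10 were tested and 7 fell, where 5.51% of all genes did. Besides Omd and Dcn these were Ogn (osteoglycin, 406 and 488 to 72.2 and 71.7 FPKM), Prelp (293 and 381 to 72.5 and 75.4), Fmod (fibromodulin, 903 and 984 to 192 and 295), Ecm2 (18.1 and 21.9 to 1.71 and 1.95) and Podn (-0.95 on the log2 scale). Bgn (biglycan) was at 1054 and 1192 before and 585 and 651 after, with a limma adjusted p of 0.0519.

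Of 19 genes of the circadian clock 6 fell and 2 rose, where 5.51% and 9.65% of all genes did. The output factors Dbp (97.7 and 176 to 35.6 and 30.7 FPKM), Tef (77.6 and 110 to 32.9 and 32.1) and Hlf (14.4 and 27.4 to 5.81 and 3.25) fell, with the repressors Nr1d1 (161 and 260 to 53.9 and 60.2) and Nr1d2 among them. Bhlhe40 rose from 76.1 and 60.1 to 144 and 128 FPKM and Nfil3, a repressor of the Dbp targets, from 6.704 and 1.58 to 29.0 and 24.0. The core activators Arntl and Clock overlapped between the groups. In the comparison sorts Thy1, BEC and cBEC the Dbp groups overlapped. Thy1 libraries ran from 15.4 to 347 FPKM before and from 24.3 to 56.5 after. BEC libraries ran from 6.24 to 76.2 before and from 56.7 to 99.4 after. Dbp groups did not overlap in Kupffer cells, where every PH library was lower than every normal one. They did not overlap in blood either, where every PH library was higher. The labels give no time of day, and its part was not tested.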
